A study of Mus musculus with 4 samples.

Results

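Ribosomal protein pseudogenes are the subject here, in RNA sequencing of 4 mouse libraries labelled Piezo1KO or WT. They were taken as every row of the deposited expression table whose biotype is processed pseudogene and whose symbol begins with Rpl or Rps and carries the -ps suffix. That gave 283 of the 54532 rows of the table. For 281 of them the stem of the symbol is that of a protein-coding gene in the table, called the parent here, and these fall on 58 parents. Rps4l-ps and Rpl48-ps1 have no such parent. A further 8 -ps rows are annotated as protein coding and 7 as transcribed processed pseudogene, and they were not included.

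Processed pseudogenes arise when the mRNA of a gene is copied into DNA and inserted elsewhere in the genome, so they lack the introns of the parent. Ribosomal protein genes, whose mRNAs are among the most abundant of a cell, have left many such copies in mammalian genomes. Most have no promoter of their own, and the younger ones can be so like the parent that a short read cannot be placed on one and not the other.

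The libraries comprised 2 labelled Piezo1KO, with the gene for the mechanically gated cation channel Piezo1 knocked out, and 2 labelled WT. The labels describe all 4 as CD4+ T cells that had infiltrated B16 tumours, B16 being a mouse melanoma line that makes pigment, and the series asks about Piezo1 in the differentiation of Th9 cells. The labels give neither the knockout's allele or Cre driver nor the age or strain of the mice, nor do they say if each library is from another animal. All p-values below thus reflect the spread among these libraries alone, which may be technical.

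Reads assigned to genes numbered 13789266 to 15892797 in a library. Piezo1 itself stood at 18.7 and 7.64 FPKM (fragment counts divided by gene length and by a library total) in Piezo1KO 1 and 2, against 27.8 and 27.6 FPKM in WT 1 and 2, so it was lower but not absent in the libraries labelled Piezo1KO. The 10 T cell markers examined took 0.00292% and 0.00120% of assigned reads in the Piezo1KO libraries, against 0.000869% and 0.000573% in the WT libraries. The 8 melanocyte markers took 1.81% and 1.00% in Piezo1KO and 2.19% and 2.25% in WT, so the labelled cell type was close to absent in all 4 libraries. The 5 erythroid markers took 0.388% and 0.356% in Piezo1KO and 0.0389% and 0.0247% in WT, and the 8 myeloid markers 0.0472% and 0.0162% in Piezo1KO and 0.00958% and 0.00735% in WT. In FPKM, each of these erythroid and myeloid genes was higher in both Piezo1KO libraries than in both WT libraries. As a share of assigned reads Cd68 was not, with 270 reads in Piezo1KO 2 and 373 in WT 1. The Piezo1KO libraries stood apart from each other and from WT: mitochondrial genes held 20.1% and 48.3% of their reads, against 3.86% and 2.99% in WT. The FPKM of Piezo1KO 2 was scaled to a library size of 0.544 times its assigned reads, that of Piezo1KO 1 to 0.962 times, and those of WT 1 and 2 to 1.26 and 1.28 times. Over all tested genes the median log2 difference from the WT mean was −0.0025 in Piezo1KO 1 and −0.011 in Piezo1KO 2. The part of these differences in the results below was not tested.

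The sequences of 4 families show how close these copies are to their parents. Each is a window of 120 bases inside the coding sequence, from the GENCODE M21 transcripts (GRCm38), written 5′ to 3′ on the strand of the transcript. In a copy, capitals mark the bases that differ from the parent, and in the parent those at which any copy shown differs. Substitutions are written with the parent's base first and are counted from 1 at the start of the window.

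In the first family, the parent Rps10 encodes a protein of the small subunit, and its copies drew nearly all of the family's reads. Rps10-ps2 lies at chr16:20822149-20822268 on the minus strand and Rps10-ps1 at chr3:95622650-95622769 on the plus strand. The parent is on chromosome 17, and the window is bases 373 to 492 of its coding sequence. Rps10-ps2 carries T21C, T36C, C65G, A66G and G101A, all 5 of its differences from the parent, and Rps10-ps1 carries G46A and A66G of its 6 differences.
Rps10-ps2: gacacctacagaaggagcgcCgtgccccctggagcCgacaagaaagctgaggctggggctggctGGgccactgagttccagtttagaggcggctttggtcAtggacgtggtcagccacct
Rps10-ps1: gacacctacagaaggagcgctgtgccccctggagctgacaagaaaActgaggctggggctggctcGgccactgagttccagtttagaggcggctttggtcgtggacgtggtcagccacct
Rps10: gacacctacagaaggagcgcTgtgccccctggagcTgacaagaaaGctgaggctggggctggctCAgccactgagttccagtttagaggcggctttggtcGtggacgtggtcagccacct

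In the second family, Rpl35a-ps2 is shown as 1 of 4 copies that are identical to each other over their whole 333 bases and yet had very different read counts. The others are Rpl35a-ps3, Rpl35a-ps4 and Rpl35a-ps6. Rpl35a-ps2 lies at chr1:181242106-181242225 on the minus strand, and the parent is on chromosome 16. The window is bases 96 to 215 of the coding sequence, and G61A is the 1 difference from the parent.
Rpl35a-ps2: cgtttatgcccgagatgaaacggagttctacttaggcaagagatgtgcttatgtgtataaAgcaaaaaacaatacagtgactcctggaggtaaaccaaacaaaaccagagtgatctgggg
Rpl35a: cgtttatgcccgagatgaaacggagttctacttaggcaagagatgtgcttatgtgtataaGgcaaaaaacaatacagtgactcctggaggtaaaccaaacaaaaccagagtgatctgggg

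In the third family, Rps16-ps2 stands for the copies with no difference from the parent at all. It lies at chr5:129128398-129128517 on the minus strand, in an intron of Adgrd1, and Rps16 is on chromosome 7. The window is bases 1 to 120 of the coding sequence.
Rps16-ps2: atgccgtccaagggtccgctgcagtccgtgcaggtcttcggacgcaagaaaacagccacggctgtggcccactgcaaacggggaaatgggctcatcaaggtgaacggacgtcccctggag
Rps16: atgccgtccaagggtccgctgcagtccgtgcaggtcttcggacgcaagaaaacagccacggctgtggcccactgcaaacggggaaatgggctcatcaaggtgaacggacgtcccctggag

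In the fourth family, Rpl10-ps6 shows the opposite case, a near-identical copy with few reads. It lies at chr19:37295281-37295400 on the minus strand, in an intron of Ide, and Rpl10 is on the X chromosome. The window is bases 397 to 516 of the coding sequence. C61T is the only difference in the aligned 642 bases, and the open reading frame of the copy holds 152 codons, against 214 in the parent.
Rpl10-ps6: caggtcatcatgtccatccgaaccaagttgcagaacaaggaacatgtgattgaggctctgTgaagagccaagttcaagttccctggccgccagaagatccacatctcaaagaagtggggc
Rpl10: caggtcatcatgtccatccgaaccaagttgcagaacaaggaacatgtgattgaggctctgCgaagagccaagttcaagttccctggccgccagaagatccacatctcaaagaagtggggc

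Few of the pseudogenes carried most of the reads. No read was assigned to 143 of the 283 in any library, and 140 had at least 1. Of these 140, 81 reached a mean of 1 FPKM over the 4 libraries, the limit for testing, and 59 did not. The last member inside that limit was Rps12-ps24 with a mean of 1.01 FPKM, and the first outside it was Rpl13-ps1 with 0.987 FPKM. A mean of at least 10 FPKM was reached by 38 members and one of at least 100 FPKM by 13. The 12 with the highest means held 61.6% and 66.8% of the reads of all members in Piezo1KO 1 and 2, and 62.4% and 61.7% in WT 1 and 2.

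The families differed in how many copies had reads. Rpl31 has the most copies, 24, of which 10 had reads and 3 were tested. Rps12 follows with 23 copies, of which 7 had reads and 4 were tested. Rpl21 has 15, Rpl23a and Rps19 have 14 each, and Rpl17 has 11, of which 5 were tested. The 283 lie on 20 chromosomes, with 35 on the X chromosome and at most 22 on any autosome, and their annotated length is 151 to 1347 bases, with a median of 456.

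All members together took 0.180% of assigned reads in Piezo1KO 1 (exact 95% binomial interval 0.178% to 0.183%) and 0.256% in Piezo1KO 2 (0.253% to 0.258%), against 0.140% in WT 1 (0.138% to 0.142%) and 0.137% in WT 2 (0.135% to 0.139%). Both Piezo1KO libraries lay above both WT libraries, and the interval covers counting error only. The 80 protein-coding ribosomal protein genes took 4.53% and 6.74% in Piezo1KO and 3.75% and 3.65% in WT. The other 9214 processed pseudogenes of the table took 0.519% and 0.493% in Piezo1KO and 0.489% and 0.486% in WT, a narrower range on this scale. Of reads outside mitochondrial genes they took 0.650% and 0.953% in Piezo1KO and 0.509% and 0.501% in WT. On that scale the members took 0.226% and 0.494% in Piezo1KO and 0.146% and 0.141% in WT. An exact permutation test of 2 libraries against 2 cannot give a p under 0.333, and no p is given for these shares.

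The most abundant member was Rps10-ps2, the copy shown above. It had 304 and 915 FPKM in Piezo1KO 1 and 2, against 210 and 187 FPKM in WT 1 and 2. Rps16-ps2, the exact copy of Rps16, whose protein lies in the small subunit, had 329 and 722 FPKM in Piezo1KO and 197 and 195 FPKM in WT. Both were higher in each Piezo1KO library than in either WT library, and Piezo1KO 2 was the highest.

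Rpl38-ps2 is an exact copy of Rpl38, a large-subunit protein known in mouse for its role in translating Hox mRNAs. It had 117 and 1144 FPKM in Piezo1KO and 59.8 and 58.4 FPKM in WT, with Piezo1KO 2 far above the other libraries. Rpl17-ps10 had 208 and 644 FPKM in Piezo1KO against 117 and 126 FPKM in WT. Rpl17-ps3 had 186 and 600 FPKM in Piezo1KO against 99.2 and 91.5 FPKM in WT. Rpl17 itself encodes a protein that lines the tunnel through which the nascent chain leaves the ribosome. In both of these copies the Piezo1KO values lay above both WT values, as in 33.9% of the 11085 genes tested.

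Among the others, Rpl31-ps8, an exact copy of a large-subunit gene, had 245 and 436 FPKM in Piezo1KO against 152 and 141 FPKM in WT. Rpl28-ps1, also exact, had 192 and 416 FPKM in Piezo1KO against 88.1 and 78.7 FPKM in WT. Rpl21-ps15 had 142 and 486 FPKM in Piezo1KO against 64.8 and 52.5 FPKM in WT. The Piezo1KO libraries were above the WT libraries in each case. Rpsa-ps10, a copy of the gene for a small-subunit protein that is also known as the laminin receptor precursor, had 165 and 300 FPKM in Piezo1KO against 107 and 104 FPKM in WT. Rpl14-ps1 had 102 and 427 FPKM in Piezo1KO against 71.5 and 70.5 FPKM in WT. Rps2-ps13 had 111 and 242 FPKM in Piezo1KO against 84.2 and 75.1 FPKM in WT. The last of the 12, Rpl23a-ps3, had 140 and 230 FPKM in Piezo1KO against 63.2 and 71.2 FPKM in WT. Its parent makes a protein at the exit of the tunnel. In these 12 members both Piezo1KO values lay above both WT values, as they did in 33.9% of the 11085 genes tested. In each of the 12, the Piezo1KO libraries differed in FPKM by more than the gap from the lower Piezo1KO to the higher WT value. As a share of assigned reads this did not hold for all of them. Rpsa-ps10 had 2148 of 15331499 reads in Piezo1KO 1 and 1987 of 13789266 in Piezo1KO 2. In WT 1 and 2 it had 1866 of 15645069 and 1876 of 15892797.

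**Figure D1:**
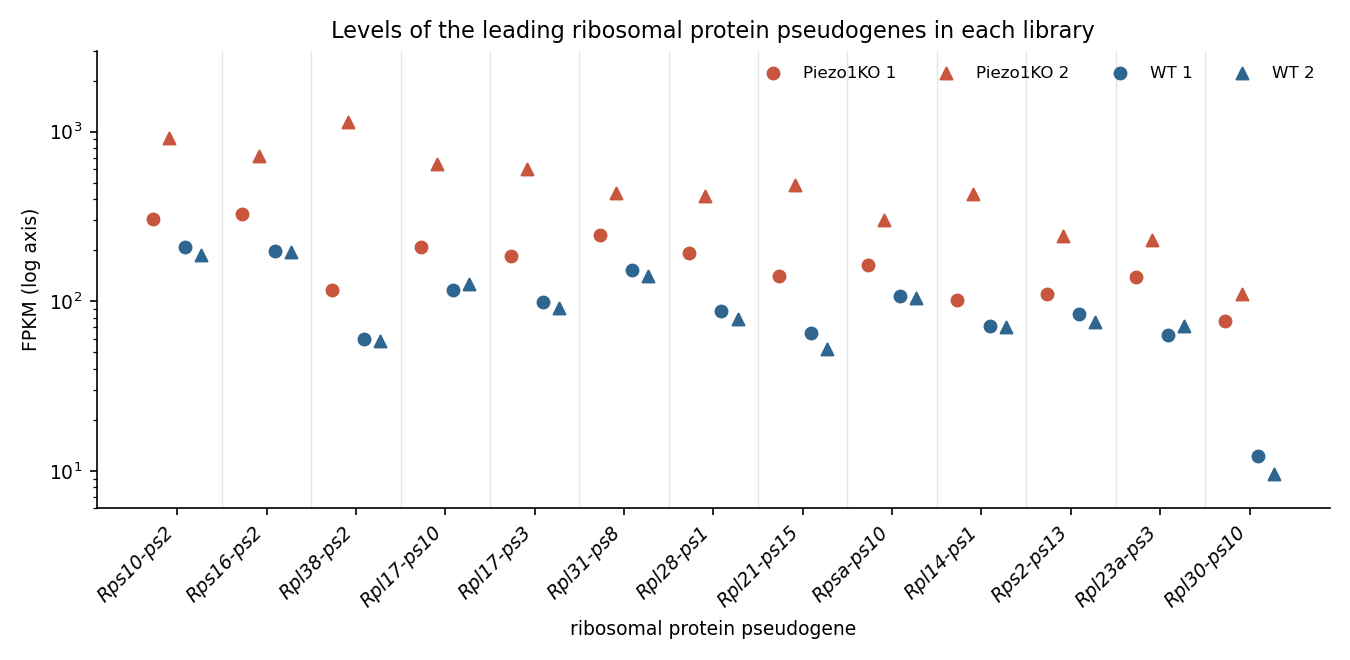
FPKM (log axis) of the 12 pseudogenes with the highest mean and of Rpl30-ps10 in each library, with the 2 Piezo1KO libraries (red) left of the 2 WT libraries (blue). Every red point lies above every blue point of its gene, as in 33.9% of all genes tested, and Rpl30-ps10 has the widest gap between groups relative to the gap within Piezo1KO.

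Likeness to the parent went with whether a member had reads. Each pseudogene was aligned with the protein-coding transcript of its parent that matched it best, and identity was taken over the aligned bases. The median identity was 99.2% in the 81 tested members, with a median of 4 differences, 96.7% in the 59 with reads below the limit and 91.7% in those without a read. Of 51 members with an identity of at least 99%, 46 were tested and 2 had no read. Of 40 members from 98% to under 99%, 21 were tested and 1 had no read. From 95% to under 98% there were 65 members, of which 12 were tested and 38 had no read.

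Below that, reads were rare. Of 63 members from 90% to under 95%, 1 was tested and 48 had no read. Of 62 under 90%, 52 had no read and 1 was tested. That one is Rpl36a-ps3 with an identity of 87.5%, which had 3.80 and 11.2 FPKM in Piezo1KO and 3.79 and 1.38 FPKM in WT and is named here after its values were seen. Over all 281 members with a parent, Spearman's correlation of identity with mean FPKM was 0.729. This is a description across members, which share the same 4 libraries, and many of which share a parent.

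**Figure D2:**
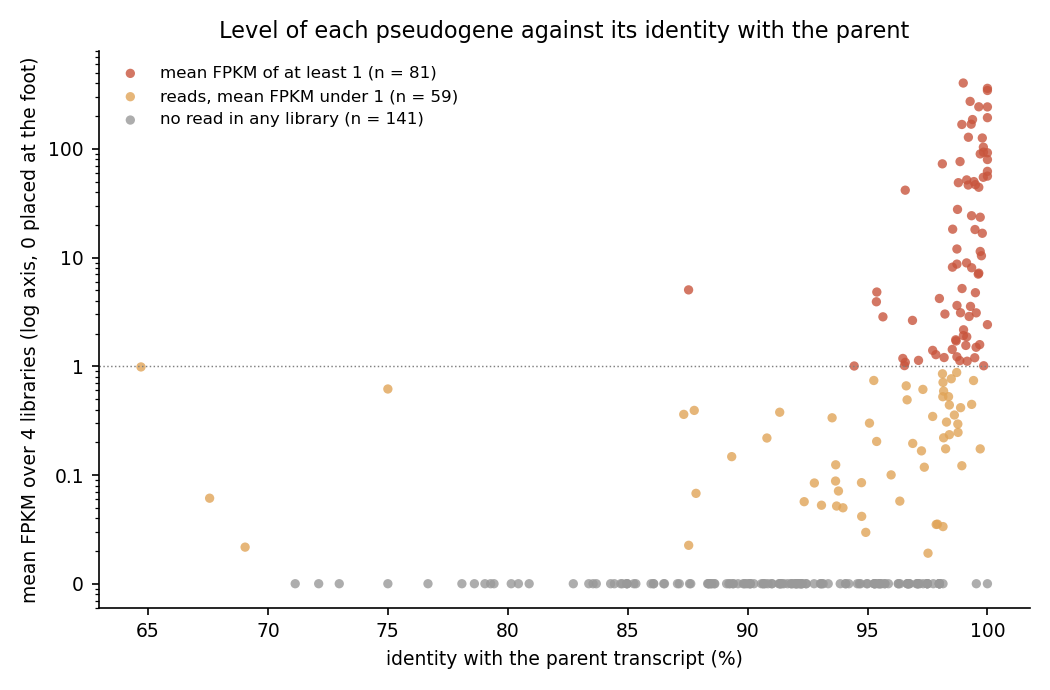
Mean FPKM over the 4 libraries (log axis, with 0 at the foot) against identity with the parent transcript (%) for the 281 pseudogenes with a parent, 1 point each. Red points are the 81 tested, yellow points the 59 with reads below the limit and grey points those without a read, and nearly all red points lie above 95% identity.

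Other features of the copies followed the same order. An open reading frame of at least 90% of the parent's codons was found in 67 of the 81 tested members, in 29 of the 59 below the limit and in 51 of the 143 without a read. A tested member shared a median of 81.1% of its 50-base windows with other annotated genes, and a member without a read shared 11.4%. In 16 of the 81 tested members every 50-base window occurred in another annotated gene. Read length is not given in sources used here, so these windows describe the sequences and not the reads. Tested members lay in an intron of another gene in 33 of 81 cases (40.7%), 21 of them with hosts on the opposite strand alone, against 26 of 143 (18.2%) of those without a read.

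The exact copies differed in how many reads were assigned to them beside the parent. Over their whole length, 10 members are identical to the parent, and 9 of these were tested. Reads assigned to Rps16-ps2 came to 21.2% and 20.1% of those assigned to Rps16 in Piezo1KO 1 and 2, and 19.7% and 22.2% in WT 1 and 2. Those of Rpl28-ps1 came to 12.6% and 11.0% of Rpl28 in Piezo1KO and 12.7% and 11.2% in WT, and those of Rps6-ps4 to 5.33% and 5.48% of Rps6 in Piezo1KO and 5.33% and 5.26% in WT. Within each of these pairs the share was nearly the same in the 4 libraries.

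Other exact copies did not keep 1 share. Reads of Rpl38-ps2 came to 20.1% and 34.2% of Rpl38 in Piezo1KO and 19.2% and 22.7% in WT, and those of Rps13-ps2 to 13.9% and 7.53% of Rps13 in Piezo1KO and 11.0% and 10.9% in WT. Rpl15-ps3, a copy of a large-subunit gene with no difference from it either, had 0.454% and 0.227% of the reads of Rpl15 in Piezo1KO and 0.420% and 0.413% in WT. Rps23-ps1, whose exon overlaps that of Gm5148 on the other strand, had no read although it is identical to Rps23. Reads of an exact copy thus ran from none to 34.2% of the parent's. The handling of reads that match several places is not given in sources used here.

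Copies that are identical to each other were not treated alike either. The 4 Rpl35a copies shown by Rpl35a-ps2 above had 1275 reads in Rpl35a-ps2, 269 in Rpl35a-ps3, 158 in Rpl35a-ps4 and 3 in Rpl35a-ps6, over the 4 libraries. Rpl35a encodes a large-subunit protein, and variants of the human gene cause Diamond-Blackfan anaemia. In all, 14 members fall in 4 such sets, and 6 of the 14 had reads. The 8 copies of Rps12 in 2 of the sets had none.

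Near-identical sequence was no guarantee of reads. Rpl10-ps6, at 99.8% identity, had 1.16 and 0.416 FPKM in Piezo1KO and 0.632 and 1.84 FPKM in WT, or 0.0029 times the mean FPKM of Rpl10, whose protein joins the large subunit late in its assembly. Rpl13-ps6, at 99.5% identity, had 1.28 and 1.89 FPKM in Piezo1KO and 1.28 and 1.55 FPKM in WT, or 0.0035 times that of Rpl13. The groups overlapped in both members.

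Set against the parents per length, most members were minor. The ratio of a member's mean FPKM to the parent's had a median of 0.0540 over the 81 tested. It was at most 0.1 in 48, from 0.1 to 1 in 28 and above 1 in 5. The FPKM of a parent is divided by a gene length that counts all its annotated exons, so that ratios of FPKM and ratios of reads differ. Summed over all members, FPKM came to 16.3% and 16.2% of the parents' in Piezo1KO and 14.9% and 15.1% in WT, a difference of 1.27 percentage points between the means. In reads it was 5.61% and 5.42% in Piezo1KO and 5.15% and 5.20% in WT, a difference of 0.336 points. Both Piezo1KO libraries were above both WT libraries on either scale.

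The 5 members above their parent belong to 3 families. Rps10-ps2 stood at 609 and 566 times the FPKM of Rps10 in Piezo1KO 1 and 2, and at 104 and 67.5 times in WT 1 and 2. Rps10-ps1 had 34.0 and 124 FPKM in Piezo1KO against 23.3 and 14.7 FPKM in WT, and stood at 68.1 and 76.5 times the parent in Piezo1KO and 11.5 and 5.32 times in WT. The parent Rps10 had 17 and 28 reads in Piezo1KO and 92 and 130 reads in WT, or 0.499 and 1.62 FPKM against 2.02 and 2.76 FPKM.

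Rps10 thus held few reads while its copies held many. The 4 Rps10 pseudogenes held 99.3% of the family's reads in both Piezo1KO libraries, and 96.1% and 94.0% in the WT libraries. Rps10-ps3 had 2 reads and Rps10-ps4 none. The fold change of Rps10 was below 0 (log2 −0.77 ± 0.33 SE, limma adjusted p = 0.198), both Piezo1KO values lying below both WT values, as in 35.6% of all genes tested. Those of Rps10-ps2 (1.41 ± 0.56, adjusted p = 0.186) and Rps10-ps1 (1.76 ± 0.65, adjusted p = 0.171) were above 0 by the same test, on the scale log2(FPKM + 1). None of the 3 passed the threshold of 0.05. Rps10-ps2 and Rps10-ps1 both keep an open reading frame of the parent's 165 codons.

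The Rpl17 and Rpl21 families followed at a distance. Rpl17-ps10 stood at 2.05 and 2.56 times the FPKM of Rpl17 in Piezo1KO and 2.11 and 2.42 times in WT, and Rpl17-ps3 at 1.83 and 2.38 times in Piezo1KO and 1.79 and 1.75 times in WT. The 11 copies of Rpl17 held 75.0% and 79.9% of the family's reads in Piezo1KO and 75.1% and 76.5% in WT. Rpl21-ps15, in an intron of Wnk3 on the X chromosome, stood at 6.54 and 3.85 times the FPKM of Rpl21 in Piezo1KO and 4.42 and 3.43 times in WT. The 15 copies of Rpl21 held 52.9% and 38.0% of the family's reads in Piezo1KO and 43.2% and 37.7% in WT. The sixth highest ratio was that of Rpl35a-ps2, with 59.7 and 244 FPKM in Piezo1KO and 31.2 and 24.6 FPKM in WT, at 1.01 and 0.903 times the FPKM of Rpl35a in Piezo1KO and 0.916 and 0.748 times in WT.

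**Figure D3:**
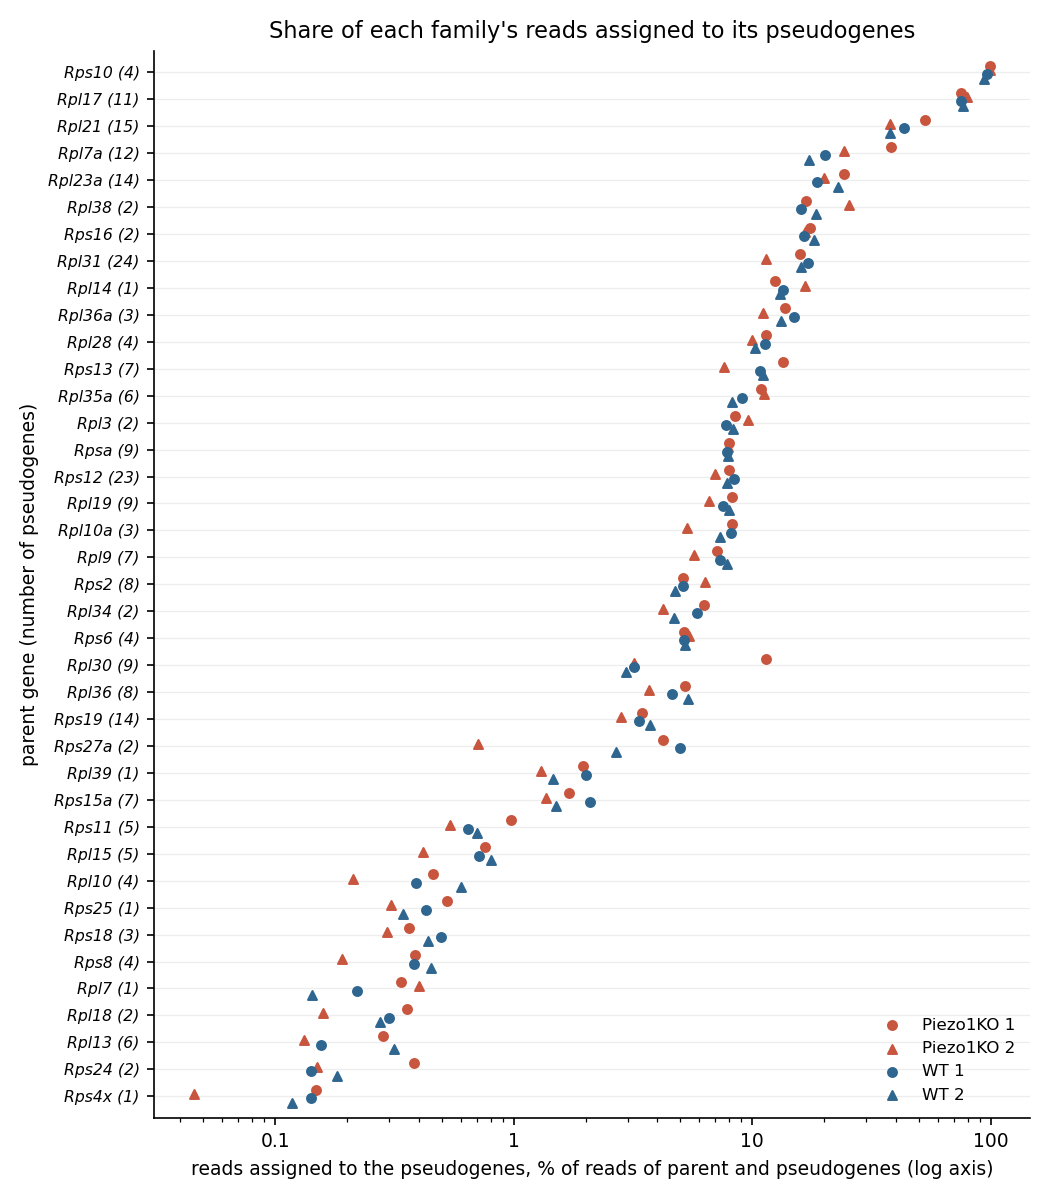
Reads assigned to the pseudogenes as a percentage of the reads of parent and pseudogenes together (log axis), for the 39 families with a tested member and each library, Piezo1KO in red and WT in blue. Rps10, Rpl17 and Rpl21 lie at the top, and the red circle of Rpl30 (11.4%, Piezo1KO 1) stands apart from the other 3 libraries of that family (2.96% to 3.20%).

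Between the groups, 1 of the 81 tested members passed the threshold (limma on log2(FPKM + 1), adjusted p under 0.05 over 11085 genes). It was higher in Piezo1KO, where 0.731% of all genes tested passed in that direction. An unadjusted p under 0.05 with the higher level in Piezo1KO was found in 47 of 81 members, against 14.9% of all genes. Both Piezo1KO libraries lay above both WT libraries in 69 of 81 members (85.2%), against 33.9% of all genes, and below both in 0 of 81, against 35.6%. The median log2 fold change was 1.15 in the members and −0.01 over all genes.

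These counts are over members that passed a limit on the mean of all 4 libraries, which favours those that are high in 1 group. Of the 81, 17 had a WT mean under 1 FPKM, and among the other 64 both Piezo1KO libraries lay above both WT libraries in 57 (89.1%), against 32.2% of the tested genes whose mean in WT reached 1 FPKM. Among all 283, both Piezo1KO libraries lay above both WT libraries in 83 (29.3%) and below both in 6 (2.12%), against 9.42% and 12.1% of all rows of the table. Members share sequence with their parents and with each other and were measured in the same libraries, so they do not count as independent. The erythroid, myeloid and mitochondrial shares given above also differed between the groups, and their part in the members' values was not tested.

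The change was unequal between the Piezo1KO libraries. Set against the WT mean alone, the members' median log2 difference was 0.72 in Piezo1KO 1 and 1.59 in Piezo1KO 2, and it was 0.73 and 2.21 in the 79 tested ribosomal protein genes. With 1 library left out, its group has a single library and limma takes the spread from the other group alone. WT libraries differed from each other far less than Piezo1KO libraries did, with a chi-square per degree of freedom of 268 in Piezo1KO and 8.17 in WT. This was computed on reads with mitochondrial genes included, which held 20.1% and 48.3% of reads in Piezo1KO. It is thus not the spread of log2(FPKM + 1) that limma uses. Counts without a Piezo1KO library rest on the narrower WT spread and are no support for the calls. Without Piezo1KO 2, 38 of 81 members passed, against 9.71% of all genes in the same direction, and without Piezo1KO 1, 69 of 81, against 27.5%. Without either WT library, 0 members and 0 genes passed, where limma's unadjusted p was under 0.05 in 10 members without WT 1 and in 11 without WT 2. Scaled to all assigned reads, the median of the members was 0.48 and that of all genes −0.67, so that the members stood 1.14 above all genes, against 1.16 on the deposited scale, and 12 of 81 members passed, against 2.5% of all genes. By other scalings, 1 of 81 passed against 0.695% of all genes with reads outside mitochondrial genes as the total, 2 of 81 against 1.13% with quantile normalisation and 5 of 81 against 1.81% with limma's voom on the recovered reads, all higher in Piezo1KO.

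Short genes as a class, which includes nearly all the tested members, lay higher in Piezo1KO. The 1096 tested genes of up to 1000 bases had a median log2 fold change of 0.68, and the 9989 longer ones −0.04. The 79 ribosomal protein genes had a median of 1.44, with 0 passing limma's adjusted threshold, 51 having an unadjusted p under 0.05 and 77 having both Piezo1KO libraries above both WT libraries. Among the 510 other processed pseudogenes tested, the median was 0.42, 3 passed with the higher level in Piezo1KO, and 241 (47.3%) lay above both WT libraries. The count of ribosomal protein genes that passed depended on the scaling. It was 17 of 79 with all assigned reads (median 0.64), against 1707 of all 11085 genes in either direction. With voom it was 12 of 79 (median 0.64), against 1512, and with quantile normalisation 0 of 79 (median 0.45), against 192. The part of gene length and mitochondrial share in the members' values was not tested.

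The member that passed was Rpl30-ps10, between annotated genes on the X chromosome. It had 76.0 and 110 FPKM in Piezo1KO 1 and 2 (389 and 285 reads) and 12.3 and 9.63 FPKM in WT 1 and 2 (84 and 68 reads). The mean was 92.8 ± 23.7 FPKM in Piezo1KO and 11.0 ± 1.87 FPKM in WT (SD, n = 2 each), the log2 fold change was 2.96 ± 0.24 SE, and the adjusted p was 0.0343 by limma. Rpl30 encodes a large-subunit protein that in yeast represses the splicing of its own transcript. It had 85.0 and 436 FPKM in Piezo1KO and 72.2 and 68.3 FPKM in WT, a log2 fold change of 1.44 ± 0.79 SE with an adjusted p of 0.271.

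The ratio of Rpl30-ps10 to its parent varied across libraries. It stood at 0.895 and 0.251 times the FPKM of Rpl30 in Piezo1KO 1 and 2, and at 0.170 and 0.141 times in WT 1 and 2. The ratio was highest in Piezo1KO 1, while the FPKM of both genes was highest in Piezo1KO 2 and ranked the 4 libraries in the same order. That order depends on the scale. Rpl30-ps10 had 389 of 15331499 assigned reads in Piezo1KO 1 and 285 of 13789266 in Piezo1KO 2, a higher share in Piezo1KO 1. Rpl30 had 3784 and 9874 reads, a higher share in Piezo1KO 2. Rpl30-ps8, another copy of the same parent, had 13.0 and 10.1 FPKM in Piezo1KO and 6.32 and 6.41 FPKM in WT, a log2 fold change of 0.75 ± 0.16 SE with an adjusted p of 0.120. The adjusted p of Rpl30-ps10 exceeded the threshold without a limit on low values (0.171), without WT 1 (0.308) and without WT 2 (0.422), and over all alternatives it ran from 1.72e-05 to 0.422. It was 0.00159 without Piezo1KO 1 and 0.00624 without Piezo1KO 2, where the spread comes from the WT libraries alone, so these values do not add to the call.

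The other members with the largest fold changes did not pass limma's test. Rpl35a-ps3 had 6.31 and 83.3 FPKM in Piezo1KO and 1.37 and 3.10 FPKM in WT, a log2 fold change of 2.99 ± 1.20 SE with an adjusted p of 0.186. Its parent Rpl35a was at 59.1 and 271 FPKM in Piezo1KO and 34.1 and 32.9 FPKM in WT, with a fold change of 1.89. Its twin in sequence Rpl35a-ps4 had 8.76 and 31.3 FPKM in Piezo1KO and 3.05 and 2.51 FPKM in WT, a fold change of 2.24 ± 0.59 SE with an adjusted p of 0.132. Piezo1KO 2 was by far the highest in both. Both Piezo1KO values lay above both WT values in each, as in 33.9% of the 11085 genes tested.

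Rpl38-ps2 had a log2 fold change of 2.61 ± 1.10 SE (limma adjusted p = 0.194) beside 2.29 for Rpl38. Rps19-ps6, a copy of the gene most often affected in human Diamond-Blackfan anaemia, had 49.8 and 214 FPKM in Piezo1KO and 20.1 and 22.1 FPKM in WT, a fold change of 2.24 with an adjusted p of 0.148 beside 2.37 for Rps19. Rpl36a-ps2, an exact copy in an intron of Ddah1, had 29.4 and 165 FPKM in Piezo1KO and 15.96 and 14.1 FPKM in WT, a fold change of 2.15 with an adjusted p of 0.176 beside 2.30 for Rpl36a. For these 3 members the fold change differed from the parent's by at most 0.32.

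At the other end, 6 members stood near 0 or below it, all with means under 2 FPKM. Rpl10-ps6 had the lowest log2 fold change, −0.30 ± 0.38 SE, beside 0.92 for Rpl10. Rpl13-ps3 had 2.39 FPKM in Piezo1KO 1 and was listed at 0 in Piezo1KO 2, against 0.488 and 1.18 FPKM in WT, a fold change of 0.03 beside 1.03 for Rpl13. Rpl13-ps6 had a fold change of 0.09, again beside 1.03 for Rpl13.

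Rps2-ps6 had 0.952 and 1.56 FPKM in Piezo1KO and 0.890 and 1.32 FPKM in WT. Its log2 fold change was 0.09 beside 0.82 for Rps2. The level of Rps2 was 1002 and 1745 FPKM in Piezo1KO and 759 and 740 FPKM in WT. Rpl19-ps1, whose exon overlaps that of Gm27907 on the same strand, had 0.918 and 1.58 FPKM in Piezo1KO and 1.46 and 0.499 FPKM in WT. Its log2 fold change was 0.21 beside 1.42 for Rpl19. Rpl15-ps2 had 1.66 and 2.18 FPKM in Piezo1KO and 1.24 and 1.76 FPKM in WT, a log2 fold change of 0.22 beside 0.88 for Rpl15. The groups overlapped in all 6, and limma's adjusted p ran from 0.466 to 0.974. They had 38 to 62 reads each over the 4 libraries, and the scale understates changes at such levels.

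Over all 81 tested members, the log2 fold change lay within 0.5 of the parent's in 49, above the parent's in 22 and below it in 59, with a median difference of −0.32. Among the 38 members with a mean of at least 10 FPKM the median difference was −0.0048, and 31 were within 0.5. Pearson's correlation between member and parent was 0.37 and Spearman's 0.54 over the 81, and Pearson's was 0.53 over the 79 without the Rps10 copies. These describe the members of the same 4 libraries, with parents counted once for each of their copies, and the lower members' fold changes are reduced by the pseudocount.

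Among the 12 highest members the log2 fold change kept close to the parent's outside the Rps10 family. It was 1.31 for Rps16-ps2 beside 1.33 for Rps16, 1.75 for Rpl28-ps1 beside 1.77 for Rpl28, 1.58 for Rpl17-ps10 and 1.80 for Rpl17-ps3 beside 1.55 for Rpl17, and 1.07 for Rpsa-ps10 beside 0.99 for Rpsa. It was 1.15 for Rpl31-ps8 beside 1.51 for Rpl31, 1.41 for Rpl23a-ps3 beside 1.30 for Rpl23a, 1.55 for Rpl14-ps1 beside 1.41 for Rpl14, 1.03 for Rps2-ps13 beside 0.82 for Rps2 and 2.15 for Rpl21-ps15 beside 1.75 for Rpl21. The adjusted p of these members by limma ran from 0.118 for Rpl23a-ps3 to 0.213 for Rpl14-ps1. Rpl35a-ps2 had 2.09 beside 1.89 for its parent.

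Rpl7a, named after its values were seen, was the other tested ribosomal protein gene that did not have both Piezo1KO libraries above both WT libraries. Rpl7a had 67.8 and 186 FPKM in Piezo1KO and 97.6 and 119 FPKM in WT, groups that overlapped, with a log2 fold change of 0.06 and a limma adjusted p of 0.940. Rpl7a-ps5 had 79.5 and 117 FPKM in Piezo1KO and 47.9 and 47.4 FPKM in WT, with a fold change of 1.00 and an adjusted p of 0.126. The 12 copies of Rpl7a held 38.0% and 24.3% of the family's reads in Piezo1KO and 20.1% and 17.4% in WT.

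**Figure D4:**
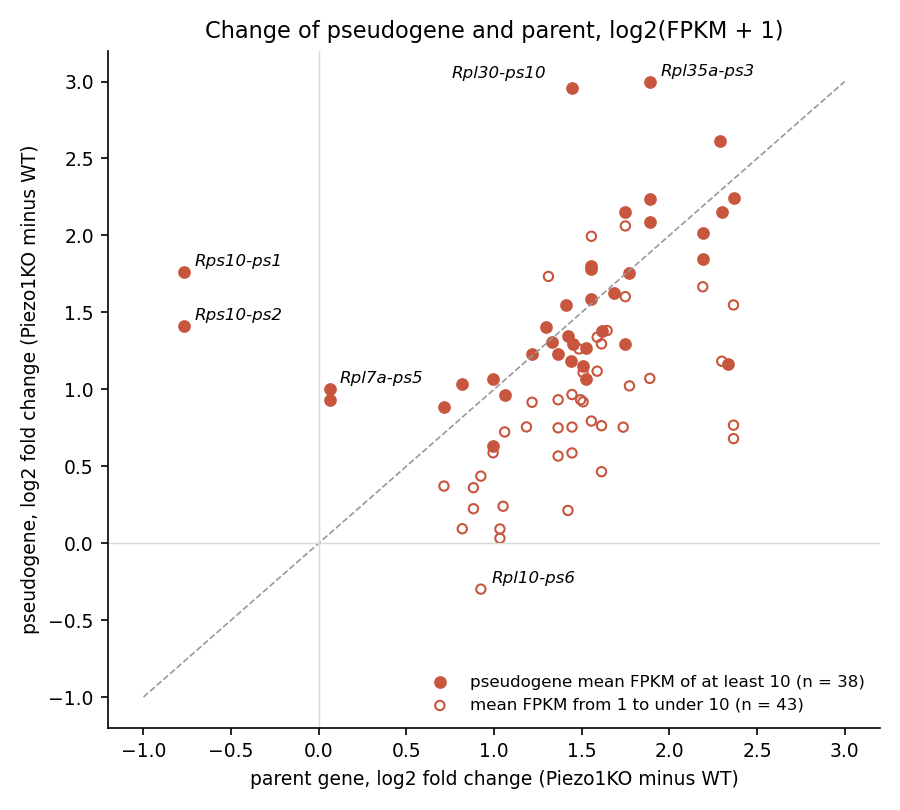
Log2 fold change of each of the 81 tested pseudogenes (vertical axis) against that of its parent (horizontal axis), Piezo1KO minus WT on the scale log2(FPKM + 1), with the line of equal change dashed. Filled points are the 38 members with a mean of at least 10 FPKM, and the Rps10 copies (1.41 and 1.76 beside −0.77) and Rpl30-ps10 (2.96 beside 1.44) lie farthest above the line among them.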

How the data were processed

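The submitters' processing notes name fastp 0.19.7, featureCounts 1.5.0-p3 and the mm10 (GRCm38) build. Aligner, strand setting, annotation release and the treatment of reads with several places are not given in sources used here. The authors deposited 1 FPKM value per gene and library, with the gene length in bases. The product of FPKM and gene length fell on whole multiples of a step particular to each library (100% of values above 0, within 0.05 reads), and dividing by it gave reads per gene. By that step, the authors' FPKM was not scaled to assigned reads.

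The test was limma 3.58.1 (R 4.3.3; lmFit, then eBayes with a trend on intensity) on log2(FPKM + 1), for Piezo1KO minus WT with no block, in the 11085 genes whose mean was at least 1 FPKM. Two-sided p-values were adjusted over all these genes by Benjamini-Hochberg, with a threshold of 0.05. The fit has 2 residual and 2.59 prior degrees of freedom. The procedure was also run on simulated data built from the WT means, with set changes in some genes and the same spread in both groups. In the real data the Piezo1KO libraries differed far more from each other than the WT libraries did. The simulation is thus no support for the calls. Fold changes on this scale understate those of low genes.

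All 283 members were found in GENCODE M21, 280 with the same coordinates as the table, and were aligned locally to their parents' transcripts with Biopython 1.88. An open reading frame may run to the end of the annotated sequence. Members named by rule are the 12 with the highest mean, those that passed and the 6 highest ratios to the parent. The 6 largest and 6 smallest fold changes were also named by rule. Any other member was named after its values were seen, among them Rpl30-ps8 and the exact copies outside these rules. The members and these rules were chosen with earlier results of these data known. Libraries are numbered by the sample number of their titles, which for WT differs from the table's own numbering. Sequences on mouse chromosome 18, among them that of Rpl17, are not printed, and those of the Rpl30 family are not reported here. The counts of the alternatives are given with the limits, and their settings were a pseudocount of 0.1, no limit or a limit of 5 FPKM, no trend, other scalings, voom on the recovered reads, a replicate block and leaving out each library.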

Additional observations from a re-analysis of the deposited data

How the results depend on the processing

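The count of members that passed was 1. It was 0 with no limit on low values (41 had an unadjusted limma p under 0.05), 2 with quantile normalisation, 12 with scaling to all assigned reads, 5 with voom on the recovered reads and from 0 to 69 with 1 library left out. With no limit, 140 members were tested, and 4156 of all 23654 genes in that fit had an unadjusted limma p under 0.05, in either direction. Over the 11085 genes of the fit as reported, 122 passed. The count was 1 with no limit, 68 with a limit of 5 FPKM, 192 with quantile normalisation, 1707 with all assigned reads, 1512 with voom and from 0 to 5859 with 1 library left out, a fit whose spread comes from the other group alone. It was 0 without WT 1 and 0 without WT 2, where 723 and 616 genes had an unadjusted limma p under 0.05, and 1579 without Piezo1KO 2. Of the calls, 66.4% were higher in Piezo1KO, but 16.2% with all assigned reads, 13.3% with voom, 56.2% with scaling to reads outside mitochondrial genes and 85.3% with a limit of 5 FPKM. The median log2 fold change of the members, 1.15, was 0.48 with all assigned reads and from 0.72 to 1.59 with 1 library left out. All genes shifted to a median of −0.67, −0.20 and −0.82 with all assigned reads, reads outside mitochondrial genes and voom. The summed members as a percentage of the summed parents, Piezo1KO minus WT, differed by 1.27 points in FPKM, by 0.336 points in reads and by 0.642 points in FPKM without the members above their parent.

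With the replicate block, 3 members and 264 genes passed. The labels do not say if the numbers pair the libraries by origin. Deviations of same-numbered libraries had a correlation of −0.0329 over 11085 genes, which cannot settle it. Of 319 values of the 25 named members under the 13 alternatives, 250 kept direction and side of the threshold, 43 now passed, 3 no longer passed and 23 changed sign. All of the last were in the 6 members with the smallest changes, and the cause was not tested. With all assigned reads the log2 fold change was −0.28 for Rpl15-ps2, −0.39 for Rpl13-ps6, −0.35 for Rps2-ps6, −0.21 for Rpl19-ps1 and −0.15 for Rpl13-ps3. With voom these were −0.43, −0.64, −0.62, −0.30 and −1.41. With reads outside mitochondrial genes Rpl13-ps6, Rps2-ps6 and Rpl13-ps3 had −0.050, −0.035 and −0.056, and with a pseudocount of 0.1 Rpl13-ps3 had −0.80. With 1 library left out, Rpl13-ps6 ran from −0.079 (without Piezo1KO 2) to 0.26, Rps2-ps6 from −0.10 (without Piezo1KO 2; −0.055 without WT 1) to 0.29, Rpl19-ps1 from −0.14 (without WT 2; −0.0015 without Piezo1KO 2) to 0.57, and Rpl13-ps3 from −0.85 (without Piezo1KO 1; −0.24 without WT 1) to 0.91. Rpl10-ps6, below 0 in the fit as reported, ran from −0.70 (without WT 1) to 0.10 (without WT 2) and had 0.0067 without Piezo1KO 2.

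Depth limits the members with few reads, and 2 libraries a group limit every test.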
